A study of Mus musculus with 4 samples.

Results

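Amino acid transporters carry the building blocks of protein synthesis across the plasma membrane, and lymphocytes raise several of them when they leave rest and begin to divide. The 8 transporter genes described here are Slc7a5, Slc3a2, Slc7a6, Slc7a11, Slc7a1, Slc1a5, Slc38a1 and Slc38a2. They are 8 of 20150 named genes on the array, each read by every gene probe whose transcript accession RefSeq assigns to it, which gave 12 of 39429 probes. Slc38a1 had 3 probes, Slc7a5 and Slc1a5 had 2 each, and the other 5 genes had 1 each. Splenic B cells came from Aff3-/- mice (2 samples) and Aff3+/- mice (2 samples), and the series addresses the effect of lacking Aff3, an AF4/FMR2 family factor of the nucleus, on their transcripts. Cells carrying CD43 were removed, and the rest, of both genotypes, were activated over 3 days by 10 ug/mL of LPS (a TLR4 ligand from bacteria) together with 10 ng/mL of the cytokine IL-4. The comparison cells carry 1 disrupted Aff3 allele and are not wild type, and the labels used here give neither the form of the allele nor the age of the mice, nor whether the replicates came from separate mice. Each sample's Cy3-labelled RNA was measured on its own Agilent mouse array, 4 in all.

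Slc3a2 encodes CD98, the heavy chain that pairs with a light chain and brings it to the cell surface. Slc7a5 (LAT1, an exchanger of large neutral amino acids such as leucine), Slc7a6 (y+LAT2, an exchanger of cationic for neutral amino acids) and Slc7a11 (xCT, which imports cystine in exchange for glutamate) are such light chains. Slc7a1 (CAT1) brings in arginine and lysine without a heavy chain, Slc1a5 (ASCT2) exchanges small neutral amino acids including glutamine, and Slc38a1 (SNAT1) and Slc38a2 (SNAT2) take up neutral amino acids together with sodium. Leucine brought in by LAT1 feeds the mTORC1 kinase, which senses amino acids at the lysosome. Several of these genes are known targets of ATF4, the transcription factor of the amino acid starvation response, which binds amino acid response elements in DNA.

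RefSeq promoter windows of the GRCm38.p6 build, 250 bases before to 50 bases after a transcript start, were held for 5 of the 8 genes, in 7 windows. They were searched on both strands for the amino acid response element core TGATGNAA, where N is any base. Slc7a11 held the core at 2 places, beginning 66 and 47 bases before the start, one on each strand, and no other transporter window held it. Slc7a5, Slc1a5 and Slc38a1 had no window, and bases outside the windows were not searched. Of all 32851 promoter windows, 3.97% held at least 1 match. The Slc7a11 window is shown because it is the one with this core, and the Slc3a2 window because Slc3a2 encodes the heavy chain shared by the light chains. Both are read 5′ to 3′ on the gene's strand, with matches in capitals, at chr3:50443564-50443863 (minus strand) for Slc7a11 and chr19:8713848-8714147 (minus strand) for Slc3a2.
Slc7a11: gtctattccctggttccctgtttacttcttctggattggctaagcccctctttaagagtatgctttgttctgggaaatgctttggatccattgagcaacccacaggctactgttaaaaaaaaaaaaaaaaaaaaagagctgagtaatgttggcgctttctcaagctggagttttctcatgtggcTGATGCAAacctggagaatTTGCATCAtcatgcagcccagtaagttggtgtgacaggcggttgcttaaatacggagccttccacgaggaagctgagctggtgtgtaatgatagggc
Slc3a2: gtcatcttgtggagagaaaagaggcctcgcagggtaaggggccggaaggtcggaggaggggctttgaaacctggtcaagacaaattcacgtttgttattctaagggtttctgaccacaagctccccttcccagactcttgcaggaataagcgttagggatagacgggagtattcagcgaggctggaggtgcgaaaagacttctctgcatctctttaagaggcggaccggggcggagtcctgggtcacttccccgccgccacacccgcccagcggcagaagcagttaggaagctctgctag
The antioxidant response element core TGACNNNGC was found in 4 of the 7 windows, those of Slc7a1, Slc38a2 and both overlapping windows of Slc7a6, against 12.4% of all windows. The E-box CACGTG was in none of the 7, against 7.15% of all windows. A match says only that these letters are present, and none of the promoters was assayed here.

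Each array gave between 24942 and 25862 probes well above background, a scanner flag for spots clearly brighter than their surroundings, and no gene spot was saturated. All 4 arrays lay on 1 slide scanned on 1 day. Levels below are log2 signal relative to the 75th percentile of the same array (1274 to 1351 intensity units), so a level of 0 equals that percentile. A level belongs to its own probe, and probes of different genes are not set against each other. All 9 B cell markers listed, among them Cd79a and Pax5, were well above background on every array. Of the T cell markers 8 of 10 were measurable, with a summed level (in multiples of the 75th percentile) of 9.63 and 8.88 in Aff3-/- samples and 10.2 and 9.52 in Aff3+/- samples. Most of that sum came from the probes of Lck and Cd4. The probes of Cd3e, Cd3d, Lat, Cd8a, Cd5 and Tcf7 lay below the 75th percentile on every array. Of the myeloid markers 4 of 10 were measurable, and Lyz2, Mpo, S100a8, S100a9 and Fcgr1 were not well above background on any array. In such bulk samples fewer cells of a type and less RNA per cell cannot be told apart. The Aff3 transcript was not analysed here, because no probe carried an Aff3 accession of the naming table, so the genotypes rest on the labels.

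None of the 12 transporter probes passed the test between Aff3-/- and Aff3+/- cells. With limma and Benjamini-Hochberg adjustment over 25116 probes the count past 0.05 was 0 for the transporters and 0% of all probes, where 489 probes (1.95%) had an unadjusted p under 0.05. No transporter probe was among the 489, and the smallest unadjusted p of a transporter was 0.24. The estimates had a median log2 difference of +0.14 over the brightest probe of each gene, against -0.01 over all probes tested. All 8 estimates were above 0, as were 45.1% of all probes and 57.8% when arrays were scaled on their median. Slc7a11 is among the 8 and in the median of +0.14, though it entered the test only through its Aff3-/- arrays, where its mean is higher. Among probes well above background on all arrays, which leaves Slc7a11 out, 7 of 7 brightest transporter probes were above 0, against 45.0% of all. The positive sign changed for some of the 8 when an array was left out. Without Aff3-/- replicate 1 only 4 of the 8 were above 0, against 45.4% of all probes, and without Aff3+/- replicate 2 it was 5. Such a fit no longer balances the replicate numbers, so the gap between them enters its estimate. On the brightest probes, Aff3-/- was higher than the same-numbered Aff3+/- array in both replicates for Slc7a5, Slc3a2, Slc7a6, Slc7a1, Slc1a5 and Slc38a2. For Slc38a2 the replicate 2 levels were almost equal (3.189 against 3.186). The order did not hold for Slc7a11 and Slc38a1. It also failed on the other Slc7a5 probe, with replicate 1 at -1.726 in Aff3-/- and -1.723 in Aff3+/- cells. The share over all probes was not computed, so the order is no result about the transporters. The 2 genotypes did not overlap at 1 transporter probe with Aff3-/- higher (8.26% of all probes) and at 1 with Aff3-/- lower (11.4% of all probes), both of them probes of Slc38a1. The arrays of 2 against 2 samples cannot give an exact permutation p below 0.33, so no such test was used.

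**Figure D1:**
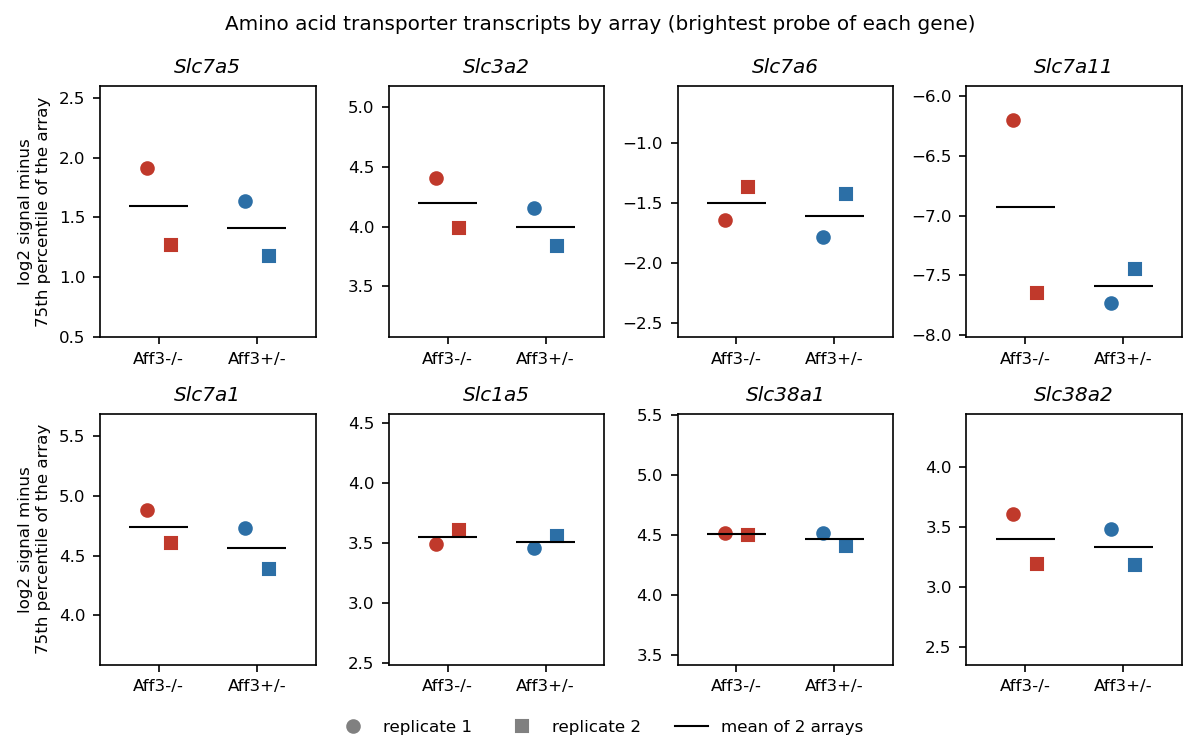
Log2 signal minus the 75th percentile of the array (y axis, each panel spanning the same range around its own values) for the brightest probe of each of the 8 genes, in Aff3-/- (left, red) and Aff3+/- (right, blue) samples, with circles for replicate 1, squares for replicate 2 and bars for the mean of 2 arrays. The genotypes overlap in every panel, and for Slc7a5, Slc3a2, Slc7a1 and Slc38a2 the circles lie above the squares in both genotypes.

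The CD98 heavy chain and its main leucine-carrying partner gave similar small estimates. Slc3a2 had levels of 4.41 and 3.99 in Aff3-/- cells (replicates 1 and 2), against 4.15 and 3.84 in Aff3+/- cells. The lower Aff3-/- array thus lay between the 2 Aff3+/- arrays. The means were 4.20 ± 0.30 in Aff3-/- and 3.997 ± 0.22 in Aff3+/- cells (SD, n = 2 each), a log2 difference of +0.20 ± 0.20 (SE, 95% interval -0.34 to +0.74, limma adjusted p = 1.00). In fold terms this interval runs from 0.791 to 1.67.

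Slc7a5, the LAT1 light chain, was read by 2 probes. On the brighter probe it stood at 1.92 and 1.27 in Aff3-/- cells, against 1.64 and 1.18 in Aff3+/- cells, and the genotypes overlapped. Its log2 difference was +0.18 ± 0.28 (SE, 95% interval -0.56 to +0.93). The other probe gave -1.73 and -2.25 in Aff3-/- cells and -1.72 and -2.27 in Aff3+/- cells, a difference of +0.01 ± 0.27 that turned to -0.12 with normexp background correction. Both Slc7a5 probes placed the replicate 1 array above the replicate 2 array within each genotype, by 0.65 and 0.52 in Aff3-/- cells and by 0.46 and 0.55 in Aff3+/- cells (log2). The distance between arrays of one genotype therefore exceeded the distance between genotypes at both probes.

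Slc7a6, the y+LAT2 light chain, was arranged the other way round within each genotype. Its levels were -1.64 and -1.36 in Aff3-/- cells, against -1.78 and -1.43 in Aff3+/- cells, with replicate 2 above replicate 1 in both. The genotype difference was +0.10 ± 0.18 (SE, 95% interval -0.38 to +0.59).

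Slc7a11, the cystine importer, was close to the detection limit, and its estimate rests on 1 array. Its raw signal was 17.9 and 6.43 intensity units in Aff3-/- cells, against 6.01 and 7.76 in Aff3+/- cells. Only Aff3-/- replicate 1 stood out, and the other 3 arrays lay together. The probe was well above background on both Aff3-/- arrays and on 1 of the 2 Aff3+/- arrays. On Aff3+/- replicate 1 it lay under 6.96, the lowest signal called well above background there. The fitted log2 difference of +0.66 ± 0.50 (SE, 95% interval -0.65 to +1.97) became -0.06 without Aff3-/- replicate 1 and +1.38 without Aff3-/- replicate 2, and it was +0.38 ± 0.17 with normexp background correction (limma adjusted p = 1.00).

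Slc7a1, the arginine and lysine carrier, followed the arrays in the manner of Slc3a2. Levels were 4.88 and 4.60 in Aff3-/- cells, against 4.73 and 4.39 in Aff3+/- cells. The difference was +0.18 ± 0.18 (SE, 95% interval -0.30 to +0.66, limma adjusted p = 1.00), and it was +0.01 when Aff3+/- replicate 2 was left out, +0.04 with Aff3-/- replicate 1 left out and +0.35 with Aff3+/- replicate 1 left out.

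Slc1a5, the glutamine-carrying ASCT2, was among the transporters with the least spread. Its brighter probe read 3.49 and 3.61 in Aff3-/- cells, against 3.46 and 3.56 in Aff3+/- cells. The other probe read 1.20 and 1.31 in Aff3-/- cells, against 1.12 and 1.30 in Aff3+/- cells. Both probes gave a difference of +0.04, with standard errors of 0.12 and 0.13. For the brighter probe the 95% interval of the fold, from 0.827 to 1.28, leaves out a change by a factor of 1.5 or more in either direction.

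The SNAT genes differed in how far their arrays spread. Slc38a1 on its brightest probe stood at 4.51 and 4.50 in Aff3-/- cells, against 4.52 and 4.41 in Aff3+/- cells, a difference of +0.04 ± 0.11 (SE, fold interval 0.835 to 1.27). Its second probe read 0.81 and 0.76 in Aff3-/- cells, against 0.76 and 0.63 in Aff3+/- cells, so that Aff3-/- was higher without overlap (+0.09 ± 0.12). The third probe read -1.16 and -1.17 in Aff3-/- cells, against -1.12 and -1.16 in Aff3+/- cells, and here Aff3-/- was lower without overlap (-0.03 ± 0.11). The 3 probes of 1 gene thus differed in sign, each by less than its standard error.

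Slc38a2, the SNAT gene that cells induce when amino acids run short, stood at 3.61 and 3.19 in Aff3-/- cells, against 3.48 and 3.19 in Aff3+/- cells. The replicate 2 arrays of both genotypes differed by less than 0.01, and the genotypes overlapped. The difference was +0.07 ± 0.20 (SE, 95% interval -0.46 to +0.59).

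**Figure D2:**
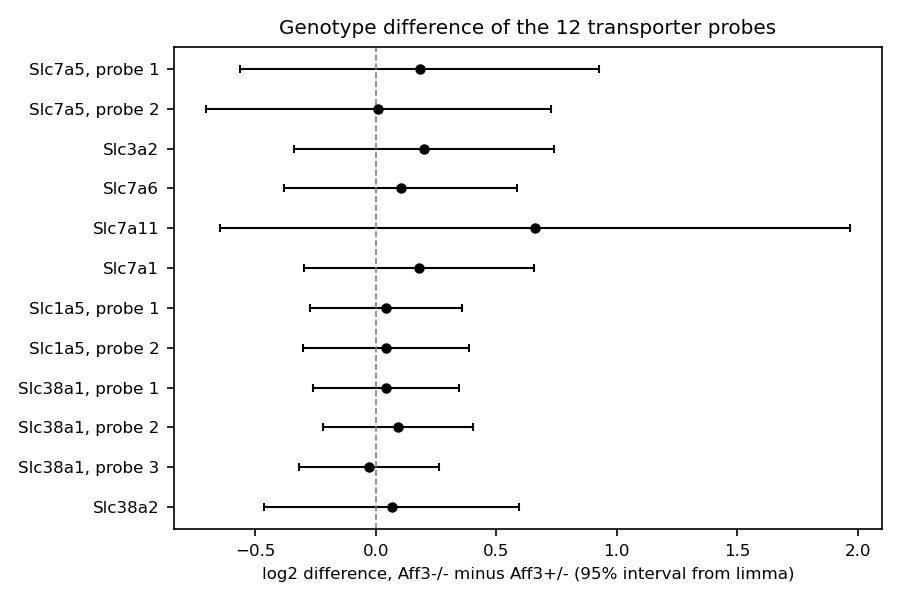
Log2 difference between Aff3-/- and Aff3+/- cells (x axis) for each of the 12 transporter probes (rows, probes of a gene numbered by brightness), with points for the limma estimate and bars for its 95% interval. Every interval spans 0, the narrowest are those of Slc38a1 and Slc1a5, and the widest is that of Slc7a11, from -0.65 to +1.97.

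For most transporters the larger distance was between arrays of the same genotype. Averaged over the genotypes, the distance of replicate 1 from replicate 2 was +0.55 (log2) for Slc7a5, +0.37 for Slc3a2, +0.36 for Slc38a2, +0.31 for Slc7a1 and -0.31 for Slc7a6. Over the 12 probes the median size of this distance was 0.31, against 0.16 over all probes tested, while the median size of the genotype difference was 0.08, against 0.07. At 6 of the 12 probes both replicate 1 arrays lay above both replicate 2 arrays, which 33.5% of all probes did, and at 3 both lay below, which 30.9% of all probes did. The labels do not say what a shared replicate number stands for.

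**Figure D3:**
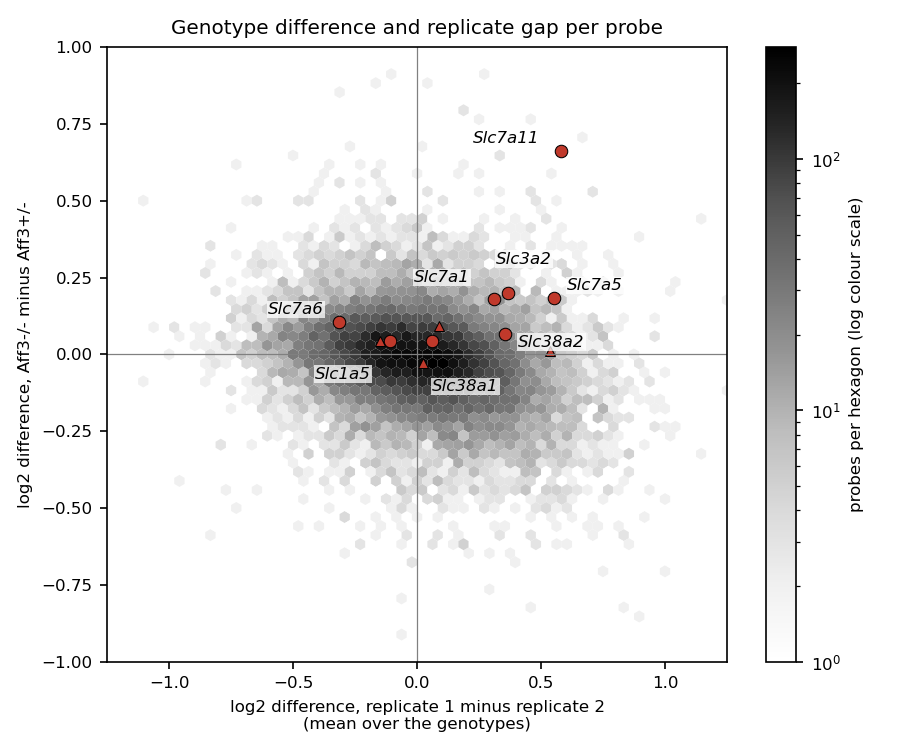
Log2 difference between Aff3-/- and Aff3+/- cells (y axis) against the log2 difference of replicate 1 minus replicate 2, averaged over the genotypes (x axis), for all tested probes (grey hexagons, darker for more probes on a log colour scale, 153 probes beyond the axes not drawn) and the transporters (red circles for the brightest probe of a gene, triangles for its other probes). Slc7a5, Slc3a2, Slc7a1 and Slc38a2 lie between +0.31 and +0.55 on the x axis and at or under +0.20 on the y axis, and Slc7a11 lies apart at +0.66.

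Genes whose levels followed the same arrays were sought among 13784 named genes, by the root mean square distance of log2 levels centred on each gene's mean over the 4 arrays. For Slc7a11, the transporter of widest range (1.52), the nearest were Marco, a scavenger receptor gene of macrophages (distance 0.047), Arrdc4, an arrestin-domain gene (0.10), and Parm1 (0.15). Marco had levels of -3.87 and -5.37 in Aff3-/- cells, against -5.43 and -5.24 in Aff3+/- cells, so that Aff3-/- replicate 1 was again the bright array. The 4 measurable myeloid markers summed to a level of 7.88 and 7.19 in Aff3-/- samples and 8.65 and 7.47 in Aff3+/- samples, most of it from Itgam, and Aff3-/- replicate 1 was the brightest array for none of the 4. The part of such cells in the Slc7a11 and Marco values was not tested. For Slc7a5, added after its values were seen as the widest transporter above background on every array (range 0.73), the nearest were Pde4dip (0.015), Mthfd2, a mitochondrial folate enzyme gene (0.018), and Fam83h (0.019). Mthfd2 stood at 2.93 and 2.29 in Aff3-/- cells, against 2.70 and 2.22 in Aff3+/- cells. With 4 arrays and so many genes, close neighbours are readily found, and no correlation was computed.

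Other carriers of amino acids were split in direction. Of 43 such genes 27 were measurable, 0 passed the adjusted threshold with limma, and 12 were higher and 15 lower in Aff3-/- cells, where 45.6% of all genes and unnamed probes were higher. The list's median was -0.05, against -0.01 over all probes, and it was +0.04 with normexp background correction. Of these genes 3 were higher without overlap (8.42% of all genes and unnamed probes) and 8 lower (11.2%). Slc36a3, of the family that holds the proton-coupled amino acid carriers, had the smallest unadjusted p (0.022), at -5.84 and -5.95 in Aff3-/- cells against -5.55 and -5.37 in Aff3+/- cells, a difference of -0.44 ± 0.13 (SE). The glutamate carrier gene Slc1a2 (+1.26 ± 0.63) spread from -6.14 to -4.28 within Aff3+/- cells alone. Slc7a4 was -0.26 ± 0.13 and the lysosomal cystine exporter gene Ctns -0.19 ± 0.12. Slc7a3, a second arginine and lysine carrier gene, and the glycine carrier gene Slc6a9, both named after their values were seen, stood at +0.38 ± 0.24 and +0.52 ± 0.35. In each, the brightest of the 4 arrays was Aff3-/- replicate 1.

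The genes through which mTORC1 senses amino acids were split nearly evenly in direction. Of 42 genes 41 were measurable, 19 higher and 22 lower in Aff3-/- cells, where 45.6% of all genes and unnamed probes were higher. The list had a median of -0.001 and 0 past the adjusted threshold. Its median was +0.03 when arrays were scaled on their median, where all probes had +0.02. Sesn1, a leucine-sensing family member and p53 target, stood at 1.46 and 1.61 in Aff3-/- cells, against 2.01 and 1.93 in Aff3+/- cells (-0.43 ± 0.12, unadjusted p = 0.018). Its paralogue Sesn3 was -0.19 ± 0.16. Lars, the leucyl-tRNA synthetase gene, was +0.32 ± 0.15 and Itfg2, of the KICSTOR complex, +0.13 ± 0.11, each with both Aff3-/- arrays above both Aff3+/- arrays. In all, 4 of the 41 genes were higher without overlap (8.42% of all genes and unnamed probes) and 2 lower (11.2%). Mtor itself was -0.07 ± 0.18 and Rptor differed by less than 0.01.

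Among regulators of the carrier genes some members had wide gaps between arrays of the same genotype. Of 19 genes 18 were measurable, 12 higher and 6 lower in Aff3-/- cells, where 45.6% of all genes and unnamed probes were higher. None passed the adjusted threshold. The list's median of +0.10 was -0.01 without Aff3-/- replicate 1, between +0.02 and +0.04 without any other array, and -0.06 in the deposited log2 values, where all probes had a median of -0.07. Keap1, the inhibitor of the oxidative stress factor NRF2, was -0.16 ± 0.12, Trp53 -0.15 ± 0.12, Impact, which restrains the amino acid sensor kinase GCN2, +0.13 ± 0.12, and the stress factor Atf5 +0.45 ± 0.40. Among genes named after their values were seen, the ATF4 target Trib3 stood at 4.76 and 3.26 in Aff3-/- cells, against 4.06 and 2.82 in Aff3+/- cells. Ddit3, which encodes CHOP, stood at 2.21 and 0.54 in Aff3-/- cells, against 1.58 and 0.49 in Aff3+/- cells. For Trib3, Ddit3, Cebpb and Atf4 the replicate 1 arrays were the brighter ones in both genotypes, as they were for Slc7a5 and Slc3a2. Myc (1.71 and 2.29 in Aff3-/- cells, against 1.67 and 2.17 in Aff3+/- cells) and Nfe2l2, which encodes NRF2 (0.75 and 1.07 in Aff3-/- cells, against 0.60 and 1.03 in Aff3+/- cells), ran the other way. Over the 18 genes both replicate 1 arrays lay above both replicate 2 arrays for 7 (33.5% of all probes) and below them for 7 (30.9% of all probes). Atf4 differed by +0.13 ± 0.27 and Myc by +0.08 ± 0.28 between the genotypes.

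Enzymes that use the imported amino acids had 33 of 36 genes measurable, 25 higher and 8 lower in Aff3-/- cells, against the same 45.6% higher over all genes and unnamed probes. None passed the adjusted threshold, and none had an unadjusted p under 0.05 in limma. The median was +0.08, but +0.02 without either Aff3-/- replicate 2 or Aff3+/- replicate 1, and -0.02 in the deposited log2 values. Of the cell markers, 7 of 8 genes of activated B cells (median +0.13) and 5 of 6 of plasma cells (+0.08) were higher in Aff3-/- cells and 8 of 9 general B cell markers lower (-0.14), with 0 past the adjusted threshold in limma, and their part in these values was not tested. Of the 33 enzyme genes, 7 were higher without overlap (8.42% of all genes and unnamed probes) and 0 lower (11.2%). Among the 7 were 3 genes of serine synthesis, Phgdh (+0.20 ± 0.13), Psat1 (+0.22 ± 0.14) and Psph (+0.19 ± 0.14), the last named after its values were seen. Shmt2, which splits serine to glycine in mitochondria, was +0.23 ± 0.13, at 3.85 and 3.65 in Aff3-/- cells against 3.56 and 3.48 in Aff3+/- cells, and Bcat1, the enzyme that takes the amino group from leucine, was +0.21 ± 0.14. The glutathione synthesis gene Gclm, downstream of cystine uptake, differed by less than its error (+0.13 ± 0.14).

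**Figure D4:**
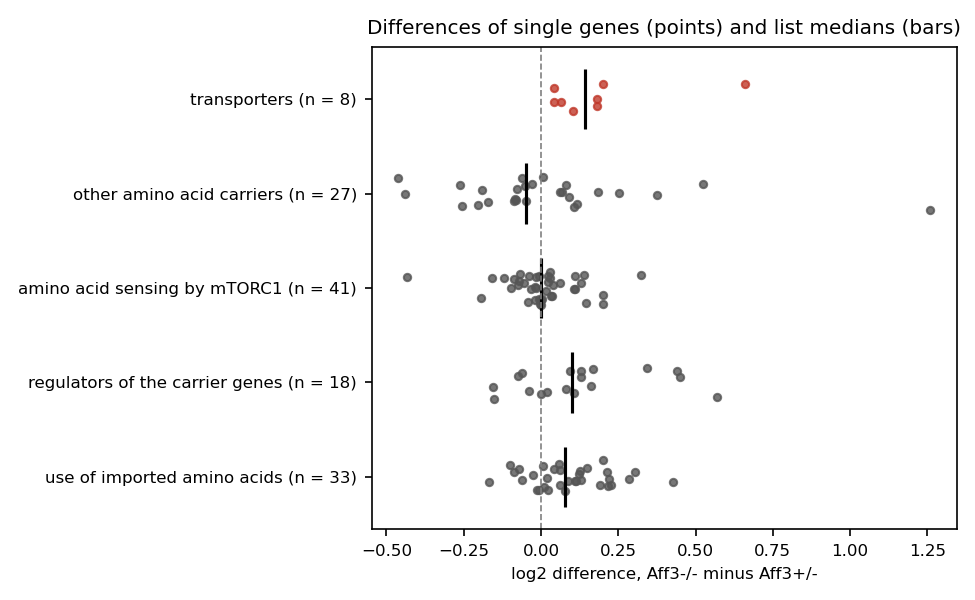
Log2 difference between Aff3-/- and Aff3+/- cells (x axis) of single genes by their brightest probe (points, spread vertically for visibility) in the transporters and the 4 further lists (rows, n genes), with black bars for medians. Medians run from -0.05 for the other carriers to +0.14 for the transporters. The largest single difference is that of Slc1a2 at +1.26, from a probe of low signal with a wide spread in Aff3+/- cells.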

How the data were processed

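Per the labels and the submitters' processing notes, each array was read with Agilent Feature Extraction 10.7.1.1, and the deposited processed signal is an intensity on a linear scale, background-subtracted and not normalized between arrays, per the file headers. A second deposited table holds log2 values of 25372 probes, centred per probe; its scaling of each array is not given in the sources used here.

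Control spots (1377 of 44397) and outlier spots were left out. Log2 processed signal minus the 75th percentile of the array was averaged over the spots of a probe. Tests used the 25116 probes that were well above background in 1 genotype or the other (on both its arrays), with limma 3.58.1 in R 4.3.3 (lmFit, eBayes without trend, 2 residual degrees of freedom), two-sided, adjusted over all probes. All 12 transporter probes passed this filter, that of Slc7a11 through its Aff3-/- arrays only. The p-values reflect the spread among these 4 samples alone, which may be technical. Symbols came from a RefSeq table of GRCm38.p6 (26586 probes by accession or symbol, 6 by synonym, 12837 unnamed). The 8 genes, the 4 further lists and the tests were chosen with earlier results of these data known. Named were all transporters and the 4 genes of smallest p in each list, with others marked as added, and Mtor, Rptor, Atf4, Myc, Cebpb and Gclm as examples. The fit was run on simulated data whose errors were independent between arrays. That run does not show how the fit behaves where same-numbered arrays deviate together, as they did here. Background correction, scaling, filter, probe rule, variance model, replicate block and single arrays were varied.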

Additional observations from a re-analysis of the deposited data

How the results depend on the processing

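Over 15 alternatives no transporter probe, no gene of the further lists and no probe at all passed the adjusted threshold, though the number of probes with an unadjusted p under 0.05 ran from 272 with a variance trend to 1787 with the replicate block, against 489. The brightest probes of all 8 genes kept a positive difference in each of the 11 alternatives that keep every array and hold the probe. In several of these the sign could not have turned. Changing the filter, the variance model or the block, or keeping only the brightest probe, leaves the estimate as it was by design. Averaging the probes of a gene can move it only for genes with several probes. The deposited log2 values hold 3 of the 12 probes, of Slc38a1 and Slc7a5 only, and the filter for all 4 arrays drops Slc7a11. Leaving out 1 array gave ranges of -0.14 to +0.51 for Slc7a5, -0.011 to +0.41 for Slc3a2, -0.072 to +0.28 for Slc7a6 and -0.060 to +1.38 for Slc7a11. The ranges were +0.01 to +0.35 for Slc7a1, -0.015 to +0.10 for Slc1a5, -0.0094 to +0.096 for Slc38a1 and -0.14 to +0.28 for Slc38a2. The sign turned for each of the 8 genes except Slc7a1. In such fits the lone array is assumed to vary like the others. The replicate numbers are no longer balanced, so the gap between them enters each estimate. The source of that gap was not tested. Same-numbered arrays deviated together (r = 0.56 over 25116 probes), which with 2 pairs and no label is a hint from the data only. With the replicate block the Slc3a2 difference was +0.20 ± 0.08 (SE) and that of Slc7a1 +0.18 ± 0.08, with limma adjusted p of 0.74 and 0.75, and the block changed no call. Precision is limited by the 4 arrays and, for Slc7a11, by a signal near background. The main fit holds no replicate block, so the gap between replicate numbers also enters its standard errors. That of Slc7a5 was 0.28 in the main fit and 0.09 with the block, and that of Slc7a11 was 0.50 and 0.46.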
